A study of Mus musculus with 12 samples.

Results

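The 10 genes described here are markers of Sertoli cells, the somatic nurse cells of the testis, measured in RNA from isolated germ cells of the mouse. They are Sox9, Amh, Wt1, Cldn11, Clu, Inha, Rhox5, Fshr, Trf and Kitl. They were taken by gene symbol from both deposited count tables, and all 10 were among the 21429 symbols of each table. They were listed as known Sertoli cell genes, with earlier results of these data known.

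The study sequenced RNA from pachytene spermatocytes (PS), which are meiotic cells in prophase, and from round spermatids (RS), the haploid cells that follow. In the knockout (KO), 1 Hdac3 allele is floxed, the other is null, and a Cre transgene runs from the Stra8 promoter (Stra8-cre/Hdac3fl/-), which is active in germ cells and not in Sertoli cells. Controls have 1 floxed and 1 intact allele (Hdac3fl/+), are labelled wild type, and have no Cre in their labels. The 4 groups, KO RS, control RS, KO PS and control PS, had 3 libraries each. The labels give neither age nor strain, the sources used here do not describe how cells were purified, and whether 1 library comes from 1 mouse or from pooled mice is not stated. The p-values below therefore measure the spread between these libraries.

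Sertoli cells line the seminiferous tubule, enclose the developing germ cells, and join to each other in tight junctions that form the blood-testis barrier. They read follicle-stimulating hormone (FSH) and testosterone, feed germ cells with iron and other nutrients, and send back inhibin to the pituitary. Their cytoplasm wraps spermatocytes and spermatids closely. In bulk RNA, fewer cells of a type and less RNA per cell cannot be told apart.

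Promoter sequences are shown for 2 members, the FSH receptor gene Fshr and the tight junction gene Cldn11, because they had the lowest ratios of the mean level in control RS to that in control PS, 0.0482 and 0.0458. Their starts are also the same base in RefSeq and in GENCODE M21. Of the 10 members, 5 had an entry in the RefSeq promoter table used here (build GRCm38.p6). Each line gives the 250 bases before the start, 5′ to 3′ on the gene's own strand, at chr17:89200676-89200925 (minus strand) for Fshr and at chr3:31149670-31149919 (plus strand) for Cldn11.
Fshr: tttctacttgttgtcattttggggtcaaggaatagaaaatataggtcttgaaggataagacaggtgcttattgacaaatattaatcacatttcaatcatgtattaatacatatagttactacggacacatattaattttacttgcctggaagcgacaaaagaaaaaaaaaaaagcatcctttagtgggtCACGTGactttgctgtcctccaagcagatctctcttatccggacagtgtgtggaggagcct
Cldn11: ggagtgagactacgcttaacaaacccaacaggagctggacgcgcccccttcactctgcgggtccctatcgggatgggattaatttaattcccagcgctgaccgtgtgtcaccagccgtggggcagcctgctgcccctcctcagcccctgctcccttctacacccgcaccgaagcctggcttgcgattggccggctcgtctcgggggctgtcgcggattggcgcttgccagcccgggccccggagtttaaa
The capitals mark the E-box CACGTG, a palindromic motif of basic helix-loop-helix factors, whose first base lies 61 bases before the Fshr start. Of 32851 promoter windows of this length, 6.02% hold it. The letters of 4 other motifs were searched on both strands, namely the SOX core AACAAT, the NR5A1 half-site AAGGTCA, the GATA core AGATAA and the cyclic AMP half-site TGACG. None of these 4 was in either window, and Cldn11 held no E-box. They are in 9.42%, 4.08%, 9.99% and 17.8% of all windows in that order. The Fshr window is 36.8% G or C and the Cldn11 window 63.6%.

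Library totals ran from 11205732 to 17467583 gene counts. Levels are in CPM, a gene's counts scaled to the library's total of gene counts, and 3 counts, used as a floor, were worth 0.172 to 0.268 CPM. The tests add TMM scaling, a correction for the make-up of each library. Its factors over all 12 libraries were 1.045 to 1.144 in KO RS and 0.8445 to 0.9035 in control RS. CPM leaves it out, and so sets KO RS higher against control RS than the tests do. The targeted gene Hdac3 had 16.4 ± 2.91 CPM in KO RS and 43.6 ± 5.502 CPM in control RS, and it had 20.4 ± 5.15 CPM in KO PS and 66.5 ± 19.8 CPM in control PS (SD, n = 3 each). As for the labelled cells, 13 round spermatid genes made up 0.573% to 1.89% of the counts of RS libraries and 0.109% to 0.381% of those of PS libraries. The 13 pachytene genes made up 0.559% to 0.679% in RS and 0.916% to 1.06% in PS. In each group the libraries are called replicate 1, replicate 3 and the remaining replicate, which could be tied to its group and not to a single title, and values below are in that order.

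Before any comparison, 1 library stood apart. KO RS replicate 3 was the highest of the 6 RS libraries for 9 of the 10 markers, all except Amh. KO RS replicate 1, in contrast, lay within the range of the control RS libraries for 6 of them (Sox9, Amh, Wt1, Cldn11, Clu and Fshr) and above it for the other 4. In PS the remaining replicate was the highest library for 9 of 10 markers in KO, with Amh the exception, and for 10 of 10 in controls. The 10 markers together had 54.8, 297.7 and 149.4 CPM in KO RS, against 38.4, 31.6 and 55.7 CPM in control RS. They had 684.7, 753.5 and 1438 CPM in KO PS, against 416.6, 400.5 and 1032 CPM in control PS. The KO RS libraries thus span a range wider than that of the controls, and every PS library lies above every RS library.

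**Figure D1:**
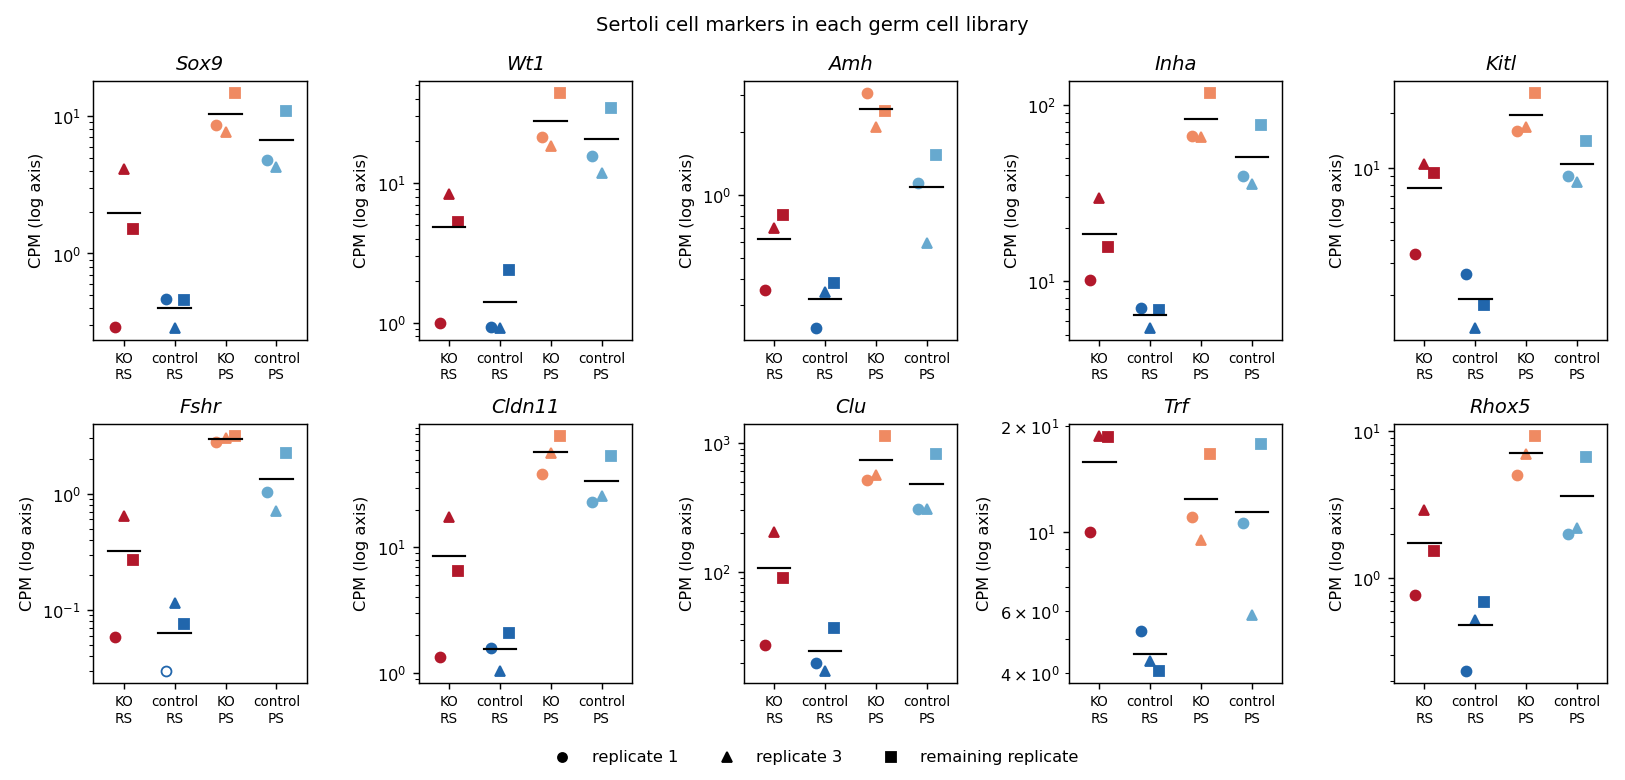
Level of each of the 10 Sertoli cell markers in every library, in CPM on a log axis, by group (KO RS, control RS, KO PS, control PS); symbols mark the replicate, bars the group mean, and the open symbol a count of 0 drawn at the foot of the axis. For 9 markers the triangle, KO RS replicate 3, is the highest RS library, and Trf is the marker whose KO RS and KO PS libraries overlap.

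The transcription factor genes set Sertoli identity. Sox9 (chromosome 11, 112782224 to 112787760, plus strand, GRCm38) encodes the HMG-box factor that drives Sertoli differentiation. It had 0.293, 4.11 and 1.52 CPM in KO RS, against 0.466, 0.287 and 0.458 CPM in control RS. It had 8.56, 7.68 and 14.8 CPM in KO PS, against 4.81, 4.28 and 10.96 CPM in control PS. The genotypes overlap in both cell types, and KO RS replicate 1 is about at the control level. Sox9 did not pass the filter on low counts for the RS comparison of 6 libraries, where it summed to 93 counts in KO and 19 in controls. The ratio of these sums, scaled to library totals, was 5.12 (95% exact counting interval 3.10 to 8.89, counting error only). Without the number 3 libraries it was 22 counts in KO against 14 in controls, a ratio of 1.68 (0.823 to 3.56). In the fit of all 12 libraries, whose filter it passed, Sox9 was higher in KO RS by 1.99 on the log2 scale (SE 0.710, adjusted p = 0.0425), and with no filter it missed the threshold at 1.98 (adjusted p = 0.0513). In the authors' deposited table Sox9 in RS stands at 1.86 (log2 fold change) and an adjusted p of 0.0187.

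Wt1 (chromosome 2, 105126529 to 105173616, plus strand) encodes a zinc finger factor that maintains Sertoli identity. It had 0.997, 8.34 and 5.26 CPM in KO RS, against 0.932, 0.920 and 2.37 CPM in control RS. It had 21.3, 18.5 and 44.2 CPM in KO PS, against 15.5, 11.7 and 34.4 CPM in control PS. The log2 fold change of KO over control was 1.52 (SE 0.643, adjusted p = 0.0924) in RS and 0.49 (SE 0.356, adjusted p = 0.474) in PS, so neither passed.

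Rhox5 (chromosome X, 37804842 to 37808876, plus strand) is an androgen-driven homeobox gene of Sertoli cells. It had 0.762, 2.90 and 1.52 CPM in KO RS, against 0.233, 0.517 and 0.688 CPM in control RS. In CPM, without the TMM scaling of the tests, every KO RS library was above every control RS library. The gap between KO replicate 1 and the remaining control replicate is small beside that scaling. It had 5.01, 6.92 and 9.23 CPM in KO PS, against 2.004, 2.20 and 6.59 CPM in control PS, where the groups overlap through the remaining control replicate. The log2 fold change was 1.58 (SE 0.571, adjusted p = 0.0578) in RS and 1.05 (SE 0.405, adjusted p = 0.158) in PS.

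Among the secreted signals, Amh (chromosome 10, 80805243 to 80807648, plus strand) encodes anti-Müllerian hormone, which immature Sertoli cells make in quantity and adult ones little. It had 0.352, 0.695 and 0.803 CPM in KO RS, against 0.233, 0.345 and 0.382 CPM in control RS. These are 27 counts in all for KO and 15 for controls, a ratio of 1.88 (0.967 to 3.81), and Amh did not pass the filter there. It had 3.09, 2.11 and 2.53 CPM in KO PS, against 1.15, 0.594 and 1.56 CPM in control PS. The PS groups do not overlap, yet the log2 fold change of 1.29 (SE 0.404) missed the threshold, at an adjusted p of 0.0826.

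Inha (chromosome 1, 75507077 to 75510366, plus strand) encodes the inhibin alpha subunit, which restrains FSH release. It had 10.2, 29.7 and 15.7 CPM in KO RS, against 7.05, 5.46 and 6.88 CPM in control RS. The groups do not overlap, and Inha rose in KO RS at 1.24 on the log2 scale (SE 0.334, adjusted p = 0.0211). In PS it had 66.6, 65.9 and 116.7 CPM in KO, against 39.6, 35.4 and 76.8 CPM in controls, at 0.76 on the log2 scale (SE 0.260, adjusted p = 0.110). The control PS remaining replicate exceeds both lower KO PS libraries.

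Kitl (chromosome 10, 100015630 to 100100416, plus strand) encodes KIT ligand, the Sertoli factor that binds KIT on spermatogonia. It had 3.34, 10.4 and 9.37 CPM in KO RS, against 2.62, 1.32 and 1.76 CPM in control RS. It had 15.8, 16.7 and 25.8 CPM in KO PS, against 8.99, 8.31 and 14.1 CPM in control PS. The genotypes do not overlap in either cell type, and Kitl is the only member of which this holds. It rose in KO RS, at 1.73 on the log2 scale (SE 0.423, adjusted p = 0.0150), and came nearest to the threshold of all members in PS, with 0.93 (SE 0.260, adjusted p = 0.0545).

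Fshr (chromosome 17, 88984952 to 89200675, minus strand) encodes the FSH receptor, by which Sertoli cells read the pituitary signal. It had 0.0587, 0.637 and 0.268 CPM in KO RS, against 0, 0.115 and 0.0764 CPM in control RS. These are 1, 11 and 3 counts in KO RS and 0, 2 and 1 counts in control RS, so all 3 control libraries are under the floor and the gene did not pass the filter there. The ratio of the sums, 15 counts in KO against 3 in controls, was 5.23 (1.48 to 28.2). In PS it had 2.79, 2.99 and 3.12 CPM in KO, against 1.03, 0.713 and 2.23 CPM in controls. The PS groups do not overlap, at 1.25 on the log2 scale (SE 0.402, adjusted p = 0.0890).

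Cldn11 (chromosome 3, 31149920 to 31164324, plus strand) encodes claudin 11, a strand protein of the Sertoli tight junctions. It had 1.35, 17.5 and 6.51 CPM in KO RS, against 1.57, 1.03 and 2.06 CPM in control RS. The KO RS libraries lie far apart, and replicate 1 is inside the control range. Cldn11 passed in KO RS with the largest log2 fold change of the tested members, 2.16, and also the largest SE, 0.701 (adjusted p = 0.0404). In PS it had 38.3, 57.1 and 77.4 CPM in KO, against 23.2, 25.6 and 53.2 CPM in controls, at 0.81 on the log2 scale (SE 0.278, adjusted p = 0.112).

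Of the secreted carriers, Clu (chromosome 14, 65968483 to 65981547, plus strand) encodes clusterin, an extracellular chaperone that Sertoli cells secrete abundantly. It had 27.4, 204.6 and 89.8 CPM in KO RS, against 20.0, 17.2 and 37.0 CPM in control RS. It had 512.2, 566.1 and 1128 CPM in KO PS, against 309.7, 305.9 and 814.3 CPM in control PS. Clu rose in KO RS, at 1.83 on the log2 scale (SE 0.552, adjusted p = 0.0317), although replicate 1 lay within the control range. In PS the log2 fold change was 0.67 (SE 0.329, adjusted p = 0.267).

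Trf (chromosome 9, 103204001 to 103230444, minus strand) encodes transferrin, by which Sertoli cells pass iron to germ cells across the barrier. It had 10.03, 18.8 and 18.6 CPM in KO RS, against 5.24, 4.31 and 4.05 CPM in control RS. It had 11.1, 9.502 and 16.7 CPM in KO PS, against 10.7, 5.82 and 17.8 CPM in control PS. Its KO RS libraries are clear of the controls, and they overlap the KO PS libraries, as those of no other member do. Trf rose in KO RS with a log2 fold change of 1.52 and the smallest SE of the tested members, 0.269 (adjusted p = 0.00559). In PS it had the smallest log2 fold change of the 10, 0.17 (SE 0.337, adjusted p = 0.829). GENCODE M21 places Gm20425 on the same strand over Trf, and the deposited counts hold no such symbol. The annotation used for counting is not given, so how reads there were assigned is uncertain.

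Levels of different genes were ranked per kilobase of exon (CPM divided by exon length). Clu came first and Inha second in all 4 groups, and Fshr last. Clu had 31.2 ± 26.2 CPM per kb in KO RS and 7.20 ± 3.11 in control RS, and 214.0 ± 99.2 in KO PS and 138.7 ± 85.1 in control PS. Fshr had 0.136 ± 0.124 CPM per kb in KO RS and 0.0270 ± 0.0248 in control RS, and 1.26 ± 0.0704 in KO PS and 0.560 ± 0.338 in control PS. The next place went to Trf in both RS groups and to Cldn11 in both PS groups. Below Inha the order was Trf, Cldn11, Rhox5, Kitl, Wt1, Sox9, Amh, Fshr in KO RS, and the same in control RS with Amh before Sox9. It was Cldn11, Rhox5, Wt1, Trf, Kitl, Sox9, Amh, Fshr in KO PS, and the same in control PS with Trf before Wt1. In KO RS no neighbours in the order were separated by more than their SDs. In control RS the steps from Inha to Trf, Trf to Cldn11, Amh to Sox9 and Sox9 to Fshr were, and in both PS groups those from Clu to Inha and from Cldn11 to Rhox5.

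Between the stages, Sertoli markers were far lower in RS than in PS in both genotypes. In controls all 10 fell, with log2 fold changes of RS over PS between -4.30 for Cldn11 and -1.16 for Trf. The background is high here, since 58.8% of the 16581 genes tested passed and 30.9% were lower. The median log2 fold change was -3.27 over the 10 markers and -0.09 over all genes tested. The steepest after Cldn11 were Clu at -4.11, Sox9 at -3.86 and Wt1 at -3.73. Fshr passed the filter through PS, had 3 counts in control RS against 57 in control PS, and its fitted value of -4.04 depends on the prior count, while the ratio of the counts, scaled to library totals, was 0.0513 (95% exact counting interval 0.0103 to 0.158). Inha was at -2.81, Rhox5 at -2.72, Kitl at -2.30 and Amh at -1.61. Sox9 and Amh, with 19 and 15 counts in control RS, also passed the filter through PS, so their falls start from a selected high level. Every control RS library lay below every control PS library for 10 of 10 markers, against 37.6% of all genes tested. This count and the median include Sox9, Amh and Fshr, which were tested only through PS. Without the remaining control PS replicate, Amh had a log2 fold change of -1.27 (adjusted p = 0.0504) and Trf one of -0.68 (adjusted p = 0.101), and the other 8 still passed. In that fit 4161 of all genes were lower.

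In KO, 9 of the 10 markers were lower in RS than in PS, where 27.6% of all genes tested were lower and 58.1% passed in either direction. Trf was the exception, at 0.22 on the log2 scale (SE 0.327, adjusted p = 0.583). The others ran from -3.29 for Fshr, which rests on 15 RS counts, to -1.48 for Kitl, with Clu at -2.92, Cldn11 at -2.91, Wt1 at -2.66 and Sox9 at -2.51. Inha was at -2.29, Amh at -2.21 and Rhox5 at -2.15. Without KO RS replicate 3 the same 9 passed, in a fit where 4126 of all genes were lower. Fshr was then at -4.36, Cldn11 at -4.05, Clu at -3.77, Sox9 at -3.71, Wt1 at -3.33, Inha at -2.78 and Rhox5 at -2.76. The median was -2.40 over the markers and -0.02 over all genes tested. Every KO RS library lay below every KO PS library for 9 of 10 markers, again against 27.6% of all genes tested. Sox9, Amh and Fshr, with 93, 27 and 15 counts in KO RS, are again in these values through PS. The stage comparison joins 2 count tables, and each stage's libraries were prepared from different cells, so the purity of each preparation and the stage cannot be told apart.

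**Figure D2:**
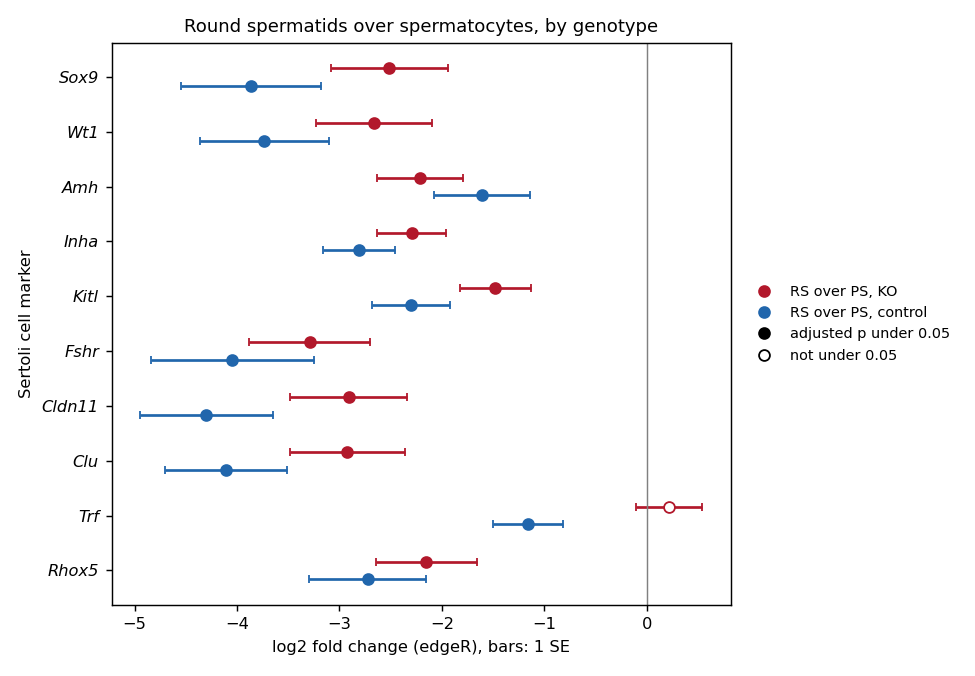
Log2 fold change of RS over PS for each marker, in KO and in controls, from edgeR with bars of 1 SE; filled points passed an adjusted p of 0.05. All 10 control points and 9 KO points lie left of 0 and are filled, and Trf in KO is the open point at 0.22.

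In round spermatids, 5 Sertoli markers rose in KO, Cldn11, Clu, Inha, Trf and Kitl, and the KO libraries lay far apart. The summed level overlaps between genotypes, since KO RS replicate 1 had 54.8 CPM and the highest control RS library 55.7 CPM. Wt1 and Rhox5 were tested and did not pass, and Sox9, Amh and Fshr did not pass the filter of the fit of 6 libraries. These are 5 of the 7 that passed the filter, and 18.7% of the 15934 genes tested were higher (31.0% in either direction). A marker can pass this filter through KO alone, as Rhox5 did. It had 13, 50 and 17 counts in KO RS, and 4, 9 and 9 in control RS. In the fit of all 12 libraries, where the 10 were tested, the same 5 and Sox9 passed, against 20.1% of all genes tested that were higher. In CPM, without TMM scaling, every KO RS library was above every control RS library for 4 of the 10, Inha, Rhox5, Trf and Kitl. This share is near the 34.7% of all genes tested by the same measure. All 4 are among the 7 that passed the filter, Rhox5 through KO, and the 34.7% covers only genes that passed it. Paired by replicate number, KO exceeded control in CPM in 3 of 3 pairs for 8 of the 10, and in 2 of 3 for Sox9 and Cldn11. The TMM factors of replicate 1, left out of CPM, were 1.045 in KO and 0.8545 in control. The CPM ratio of Wt1 in that pair was 1.07, so its direction there changes with this scaling. The share of all genes higher in all of these pairs was not counted, and genes without overlap alone make 34.7%. The summed marker level in KO, also in CPM without TMM scaling, was 1.43 times that of control in replicate 1, 9.43 times in replicate 3 and 2.68 times in the remaining replicate. In the authors' deposited table, which holds the same libraries, Sox9, Cldn11, Clu, Inha, Rhox5, Trf and Kitl have adjusted p-values under 0.05 in RS. The share of all genes under 0.05 there was not counted. In the authors' PS table no member is under 0.05, and the lowest adjusted p is 0.103, for Amh.

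The count changed with single libraries. Without KO RS replicate 3 only Trf was called, against 11.9% of all genes tested that were higher, and Cldn11 had a log2 fold change of 1.05 (adjusted p = 0.210), Clu 0.98 (adjusted p = 0.117), Inha 0.75 (adjusted p = 0.0860) and Kitl 1.45 (adjusted p = 0.0527). Without both RS libraries numbered 3, a setting added after the data were seen, again 1 member was called, Trf, against 6.88% of genes. Clu then had 0.81 (adjusted p = 0.231) and Kitl 1.28 (adjusted p = 0.117). Without the remaining KO RS replicate Trf alone was called too, against 7.01% of genes, but the log2 fold changes moved less than without replicate 3. They were higher than with all libraries for Cldn11 at 2.32 (adjusted p = 0.0826), Clu at 1.95 (adjusted p = 0.0741) and Inha at 1.36 (adjusted p = 0.0533). For Kitl the value was lower, at 1.58 (adjusted p = 0.0644). Without KO RS replicate 1 the count was 8, with Sox9, Wt1 and Rhox5 among them, against 23.0% of genes. Leaving out 1 control RS library gave 3 for replicate 1 (13.9% of genes), 2 for replicate 3 (11.7%) and 2 for the remaining replicate (12.7%). With the replicate number as a block, all 7 tested members passed, against 28.8% of all genes tested that were higher. Rhox5 is among these 7 through its KO counts. In that fit the adjusted p of Wt1 was 0.0223 and that of Rhox5 0.0114. DESeq2 also called 5, with Wt1 in place of Clu, whose adjusted p was 0.0568, against 18.8% of genes.

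In pachytene spermatocytes no marker passed the test that leaves out the pairing by replicate number, and 9 of 10 passed with that number as a block. KO over control log2 fold changes were positive for all 10, from 0.17 for Trf to 1.29 for Amh, with a median of 0.78, against 0.06 over all genes tested. By edgeR without the block 0 of 10 passed, against 0.910% of the 15272 genes tested that were higher and 5.41% in either direction. At an unadjusted p under 0.05, 6 of the 10 were higher, against 8.37% of genes, and DESeq2 called 1, Kitl, among 305 of 15272 genes that were higher. Every KO PS library was above every control PS library for 3 of the 10, Amh, Fshr and Kitl, against 8.17% of all genes tested. KO exceeded control in 3 of 3 pairs of the same number for 9 of the 10, with Trf the exception. The share of all genes higher in all of these pairs was not counted, and genes without overlap alone make 8.17%. Counts of Rn45s, the ribosomal RNA precursor, were also higher in KO in each of these pairs, at 0.0449%, 0.0609% and 0.271% of counts in KO PS, against 0.0320%, 0.0416% and 0.0462% in control PS. In RS they were 0.0341%, 0.113% and 0.277% in KO, against 0.0270%, 0.0586% and 0.0892% in controls, and the part of this in the marker result was not tested. The 13 round spermatid genes went the other way in PS, where 7 fell in KO, against 687 of the 15272 genes tested that were lower. Their summed share in KO was 0.563, 0.484 and 0.505 times that of control in the 3 pairs. The summed marker level in KO was 1.64 times that of control in replicate 1, 1.88 times in replicate 3 and 1.39 times in the remaining replicate.

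With the replicate number as a block, 9 of the 10 passed in PS, all but Trf, against 10.6% of all genes tested that were higher. The fold changes hardly moved, with Clu at 0.73 (SE 0.0937, adjusted p = 0.000441), Inha at 0.78 (adjusted p = 0.000874), Cldn11 at 0.84 (adjusted p = 0.00212) and Kitl at 0.93 (adjusted p = 0.00255). Rhox5 was at 1.15 (adjusted p = 0.00990), Amh at 1.32 (adjusted p = 0.0161), Fshr at 1.31 (adjusted p = 0.0191), Sox9 at 0.73 (adjusted p = 0.0202) and Wt1 at 0.52 (adjusted p = 0.0260). Trf was at 0.24 (adjusted p = 0.408). Without the remaining control PS replicate, and with no block, 6 members passed, namely Cldn11, Clu, Inha, Rhox5, Fshr and Kitl, against 3.38% of genes that were higher.

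**Figure D3:**
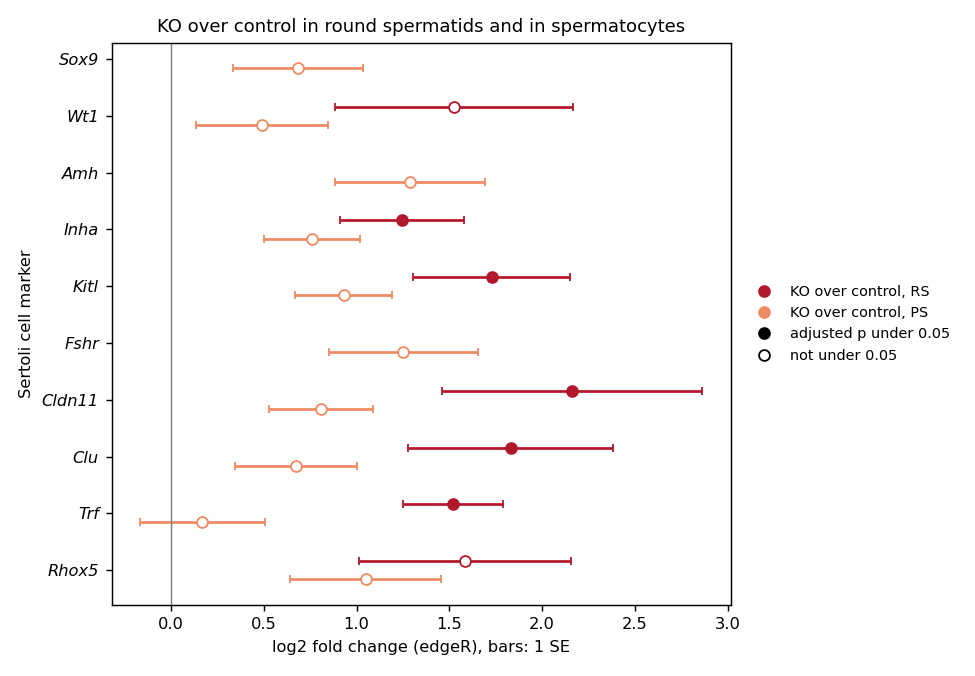
Log2 fold change of KO over control for each marker, in RS and in PS, from edgeR with bars of 1 SE; filled points passed an adjusted p of 0.05, and Sox9, Amh and Fshr have no RS point because they did not pass the count filter. Filled points are Inha, Kitl, Cldn11, Clu and Trf in RS, and no PS point is filled. These fits have no replicate block.

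Whether the KO effect differed between RS and PS was tested directly as an interaction over all 12 libraries, and no member passed. The log2 difference (KO effect in RS less that in PS) was 1.39 for Cldn11 (adjusted p = 0.465), 1.38 for Trf (SE 0.471, adjusted p = 0.244), 1.35 for Sox9 (adjusted p = 0.511) and 1.19 for Clu (adjusted p = 0.491). It was 1.07 for Wt1, 0.83 for Kitl, 0.75 for Fshr, 0.57 for Rhox5 and 0.52 for Inha, and -0.61 for Amh. Without KO RS replicate 3 the difference was 0.25 for Cldn11, 0.15 for Sox9, 0.34 for Clu, 0.41 for Wt1, 0.03 for Inha and 0.56 for Kitl, and it was 1.26 for Trf. It was then -0.03 for Rhox5 and -0.32 for Fshr. By edgeR 0 of 10 passed, against 0.0181% of all genes tested. At an unadjusted p under 0.05, 1 of 10 was higher, Trf, which is near the 11.5% of all genes tested. With the replicate block Trf passed at 1.33 (SE 0.383, adjusted p = 0.0410), against 6.74% of all genes tested that were higher. A call in RS and none in PS is thus not a tested difference for any member in the main fit. For Trf the difference passed only with the block.

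The make-up of the marker RNA was not the same in RS and PS, with more Trf, Kitl and Inha for each count of Clu in RS. Per 100 Clu counts, Trf had 36.6, 9.17 and 20.8 counts in KO RS, against 26.2, 25 and 10.9 in control RS. It had 2.16, 1.68 and 1.48 in KO PS, against 3.44, 1.90 and 2.19 in control PS. The mean ratio of Trf to Clu in RS was 12.52 times that in PS in KO, and 8.25 times in controls, with no overlap between stages in either genotype. Kitl had 9.25 ± 3.70 counts per 100 of Clu in KO RS and 8.50 ± 4.23 in control RS, and 2.78 ± 0.433 in KO PS and 2.45 ± 0.630 in control PS. Inha had 23.1 ± 12.4 in KO RS and 28.5 ± 8.74 in control RS, and 11.7 ± 1.33 in KO PS and 11.3 ± 1.69 in control PS (SD, n = 3 each).

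Sox9, Wt1 and Cldn11 kept closer to a fixed ratio to Clu. Sox9 had 1.59 ± 0.477 counts per 100 of Clu in KO RS and 1.74 ± 0.547 in control RS, and 1.45 ± 0.195 in KO PS and 1.43 ± 0.108 in control PS. Wt1 had 4.53 ± 1.18 in KO RS and 5.46 ± 0.884 in control RS, and 3.78 ± 0.460 in KO PS and 4.35 ± 0.603 in control PS. Cldn11 had 6.92 ± 1.85 in KO RS and 6.48 ± 1.21 in control RS, and 8.14 ± 1.71 in KO PS and 7.47 ± 0.915 in control PS. The mean ratio in RS over that in PS ran from 0.850 for Cldn11 in KO to 1.26 for Wt1 in controls, and the libraries of the stages overlap. For Rhox5 it was 1.95 in KO and 2.77 in controls, and for Amh, Fshr and Sox9 it rests on few RS counts (19 for Sox9 in control RS, 15 for Amh and 3 for Fshr). These ratios are descriptions and were not tested. Clu itself made up 59.6% of the members' counts in KO RS and 57.8% in control RS, and 76.1% in KO PS and 76.5% in control PS (means of 3 libraries).

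**Figure D4:**
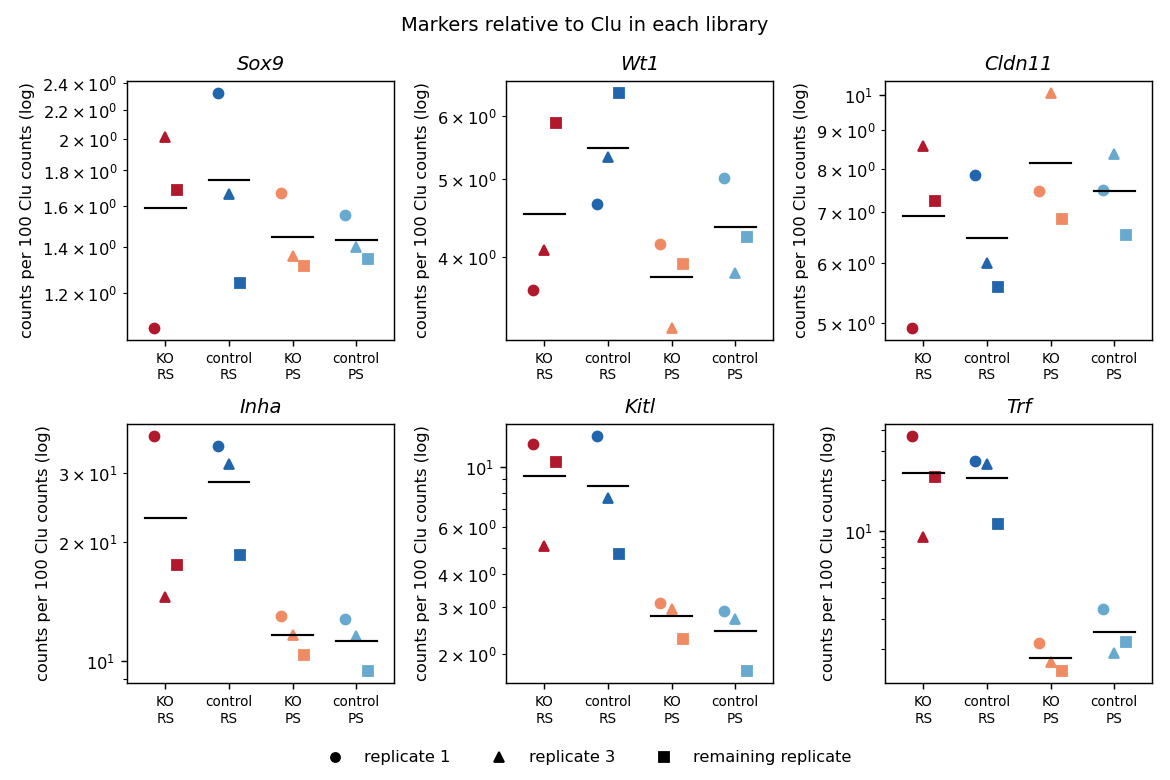
Counts of 6 markers per 100 counts of Clu in each library, on a log axis, by group, with bars at the mean; symbols mark the replicate. Sox9, Wt1 and Cldn11 overlap between RS and PS, whereas every RS library lies above every PS library for Inha, Kitl and Trf.

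Within a stage the markers moved together over libraries. Over the 6 PS libraries, Pearson's r of log2 CPM between 2 members ran from 0.627 to 0.991 over 45 pairs, with a median of 0.891. In the 9 pairs with Trf the median was 0.696, and in the 36 others 0.926. Over the 6 RS libraries r ran from 0.753 to 0.994, with a median of 0.893, and the median was 0.832 in pairs with Trf. These values share libraries and depth and include both genotypes, so they only describe how alike the members were.

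The genes of at least 5 CPM whose log2 CPM over the 12 libraries was most like the members' mean profile were Klhl23 (r = 0.996), Lsr, Gca, Ctsl, AU015836, Prdx2, Nxf3, Sema6c, Wipf3 and Abat (r = 0.990). Ctsl, cathepsin L, was also on a list of 25 further Sertoli genes. With each stage centred first, the 10 most alike were AU015836 (r = 0.987), Klhl23, Maged2, Ctsl, Lsr, Cd47, Prdx2, Gca, Wipf3 and Serpina5 (r = 0.976). Among the 100 most alike of 11206 genes were 4 of the 19 further Sertoli genes ranked, Nr5a1, Ctsl, Gja1 and Serpina5. They also held 2 of 8 Leydig genes, Hsd3b6 and Star, and 2 of 16 partner genes, Amhr2 and Nr5a1, and 0 genes of the macrophage, peritubular, endothelial and germ cell lists. Of those lists 8 macrophage, 11 peritubular, 13 pachytene and 13 round spermatid genes were ranked. Only 1 endothelial and 5 spermatogonial genes were, so 0 says little for these.

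The further Sertoli genes were set beside the members. In RS 3 of 22 tested rose in KO, a smaller share than the 18.7% of all genes tested, and 0 fell, and the median log2 fold change was 1.08, against 0.02 over all genes tested. The 3 were Etv5 at 1.51 (adjusted p = 0.0152), Serpina5 at 1.99 (adjusted p = 0.0283) and Vim at 1.08 (adjusted p = 0.0314). In PS 0 of 24 passed, with a median of 0.64. At an unadjusted p under 0.05, 7 were higher, against 8.37% of all genes tested. With the block 17 were higher, against 10.6%. Of the 25, 22 fell in control RS against PS and 21 fell in KO RS against PS, with medians of -2.50 and -2.22. Of all genes tested, 30.9% and 27.6% were lower in these comparisons. Krt18 rose in both.

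The partners of the members are their receptors, subunits, junction proteins and co-factors, and some, such as Kit and Dmrt1, are also known germ cell genes. In RS 6 of 20 tested rose in KO (18.7% of all genes), with 0 lower and a median log2 fold change of 1.03. Tfrc, the transferrin receptor that takes up the product of Trf, had 61.5 ± 4.22 CPM in KO RS and 14.0 ± 0.231 CPM in control RS, at 1.88 on the log2 scale (SE 0.175, adjusted p = 0.00249). Kit, the receptor of KITL, had 45.5 ± 8.99 CPM in KO RS and 13.7 ± 1.89 CPM in control RS, with 1.46 (SE 0.197, adjusted p = 0.00303). On the log2 scale Acvr2b, an activin receptor, rose by 1.88 (adjusted p = 0.00298), Dmrt1 by 1.52 (adjusted p = 0.00353) and Ctnnb1, beta-catenin, by 1.24 (adjusted p = 0.00449). In PS 0 of 21 passed. Inhbb, Gata4 and Nr5a1 are on this list and on the further Sertoli list.

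Markers of other somatic cells moved in RS as well, and their part in the Sertoli result was not tested. In RS 10 of 11 macrophage genes rose in KO, against 18.7% of all genes tested, and their summed level was 223.0 to 338.7 CPM in KO RS and 77.2 to 92.1 CPM in control RS. In PS it was 26.0 to 43.2 CPM in KO and 26.1 to 52.2 CPM in controls, lower than in RS, whereas the Sertoli sum was higher there. The Leydig sum was 35.0, 206.7 and 116.9 CPM in KO RS and 34.0, 50.2 and 82.4 CPM in control RS, and 452.7 to 944.8 CPM in KO PS and 427.7 to 884.3 CPM in control PS. Like the Sertoli sum it was highest in RS in KO replicate 3, while 2 of 9 Leydig genes rose in KO RS, Hsd3b6 and Hsd3b1, a share near the 18.7% of all genes. The peritubular sum was 346.7 to 733.1 CPM in KO RS and 441.2 to 493.1 CPM in control RS, with 0 of 13 genes past the threshold. In PS 3 of 13 peritubular genes fell in KO, while 0 of 10 Sertoli markers did (and 0 did at an unadjusted p under 0.05). Of the 15272 genes tested there, 687 were lower. No gene of the Sertoli, Leydig, peritubular or macrophage lists was at 0 in all libraries of a group.

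**Figure D5:**
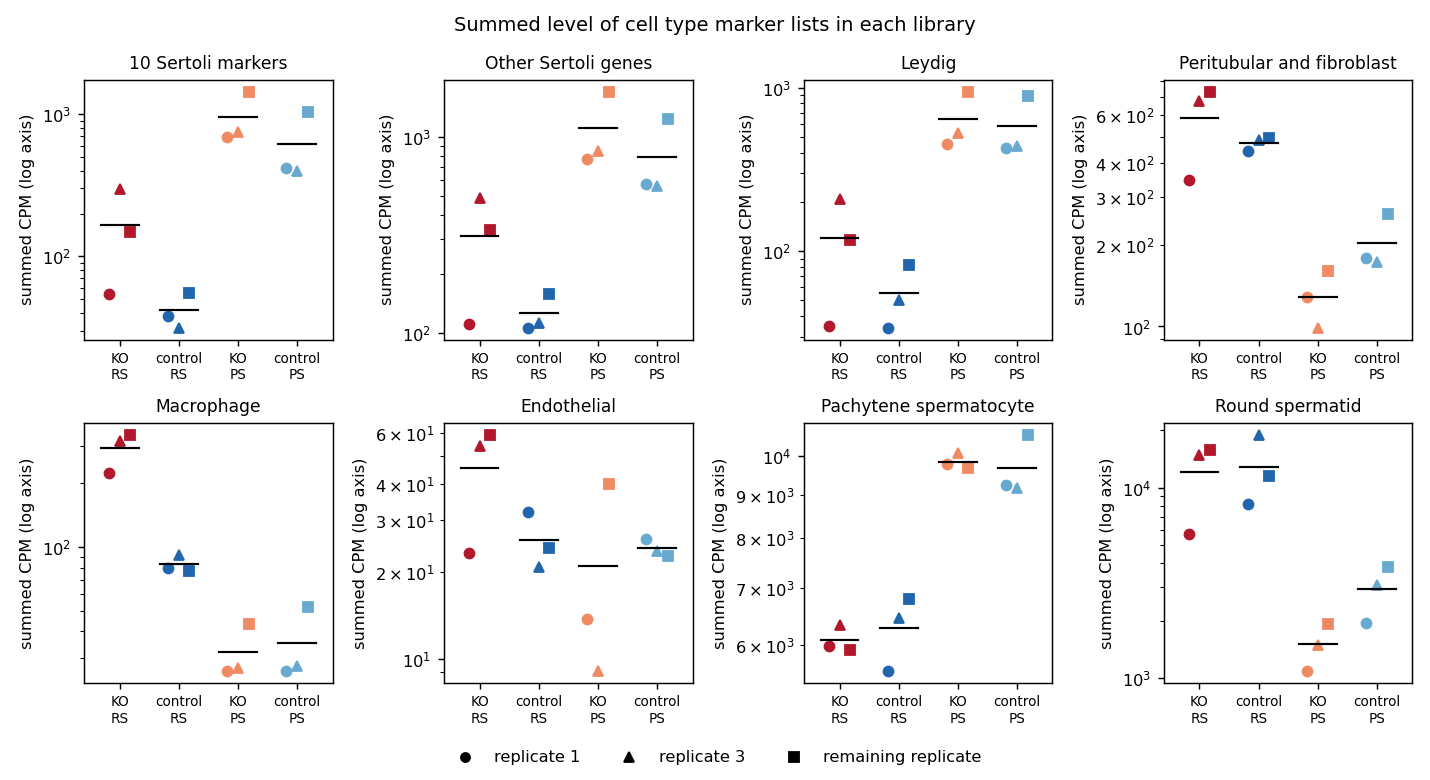
Summed level of each marker list in every library, in CPM on a log axis, by group, with bars at the mean; symbols mark the replicate. The Sertoli and Leydig sums are lower in every RS library than in every PS library, and the macrophage sum is higher in every RS library than in every PS library.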

How the data were processed

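Per the labels' protocols, RNA taken with TRIzol went into stranded libraries (TruSeq Stranded Total RNA kit). The submitters' processing notes name HISAT2 2.1.0, HTSeq and build mm10, and the authors deposited raw gene counts. The annotation and strand setting are, in the sources used here, not given. The authors' log2 fold changes and p-values were deposited in the same tables. DESeq2 stands in the notes as well. A further 12 columns, of normalized values by sample, were left aside.

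Counts of both tables were joined by gene symbol. KO and control were set against each other per cell type (6 libraries, 4 residual degrees of freedom), and RS with PS and the interaction were taken from 1 fit of 12 libraries (8 residual degrees of freedom). Each used edgeR 4.0.16 (R 4.3.3), its quasi-likelihood test, with TMM scaling, filterByExpr and Benjamini-Hochberg adjustment over all genes tested, at 0.05. Scripts were tested on simulated data. Standard errors come from the fold change and its F statistic. Per-kilobase levels use exon lengths of GENCODE M21 (GRCm38). Intervals of count ratios are 95% exact and, like the floor of 3 counts, cover counting error only. Likeness used Pearson's r of log2 CPM with a prior count of 2 and is a description.

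All 10 members are named. From each list the text names genes under a rule: the most abundant gene and up to 4 past the threshold in each direction by p, and the 10 genes most alike. The members, lists and tests were chosen with earlier results of these data known. Lists of endothelial, spermatogonial, pachytene and round spermatid genes were used beside those described. In RS 1 of 8 endothelial and 5 of 11 spermatogonial genes rose in KO, 1 of 13 pachytene genes rose and 1 fell, and 6 of 13 round spermatid genes fell. Of the 15934 genes tested in RS, 2974 were higher and 1968 lower. In PS 7 of 13 round spermatid genes fell, against 687 of 15272 genes tested that were lower. There 0 genes of the endothelial, spermatogonial and pachytene lists passed. At an unadjusted p under 0.05, 3 spermatogonial and 1 pachytene gene were higher, against 8.37% of all genes tested.

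Alternatives were other scaling, no filter, DESeq2 1.42.0, the replicate number as a block, and leaving out each library. Replicate numbers were read as pairing the libraries: deviations from group means of libraries of the same number correlated at 0.308 to 0.413 within a cell type and at 0.134 to 0.488 across them, those of different numbers at -0.417 to -0.0000207 and at -0.475 to 0.197. Replicates 1 and 3 carry their numbers in the labels, and the remaining replicates were paired by elimination. No replicates were alike within sampling noise (lowest chi-square per gene 15.8).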

Additional observations from a re-analysis of the deposited data

How the results depend on the processing

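With the replicate number as a block, the genes called numbered 3476 for KO against control in PS (826 without the block), 8736 in RS (4942 without it) and 1285 for the interaction (3 without it). The members called numbered 9 in PS (0 without it) and 1 for the interaction, Trf (0 without it), and the block changed no member's call between RS and PS. DESeq2 called 1264 genes and 1 member in PS and 119 genes for the interaction. With no filter on low counts 1 member was called in PS, and 6 genes for the interaction. Library size in place of TMM gave 35 genes for the interaction, and it moved the median of all genes from 0.02 to 0.28 for KO against control in RS, where Rhox5 then passed at 1.87 (adjusted p = 0.0412). Without the number 3 libraries, a choice made after seeing the data, 1388 genes and 1 member were called in RS and 0 genes for the interaction. The log2 change of Trf in KO RS against KO PS was then -0.068, and the interaction was -0.090 for Sox9 and -0.12 for Inha. Leaving out 1 library at a time gave 288 to 1592 genes and 0 to 6 members in PS, 1546 to 6391 genes and 1 to 8 members in RS, and 0 to 6 genes for the interaction. It gave log2 changes of -0.14 to 0.52 for Trf in PS, and interactions of -0.13 to 0.83 for Rhox5 and -0.32 to 1.46 for Fshr. Counting genes of at least 1 CPM put 7 further Sertoli genes among the 100 most alike, against 4. The KO to control ratio of the summed level was 3.99 in RS, or 3.51 without Clu, and 1.56 in PS, or 1.60 without Clu. The cause of these shifts was not tested. In RS the filter left Sox9, Amh and Fshr untested in the fit of 6 libraries. In the fit of all 12 libraries 6 members were called there, the same 5 and Sox9.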
